A study of Mus musculus with 21 samples.

Results

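B cell identity genes are a set of 9 genes whose transcripts mark mature B lymphocytes: Ms4a1, Cd79a, Cd79b, Pax5, Cr2, Fcer2a, Cd22, Blk and Bank1. They were chosen by name, and each was found once among the 55491 genes of the lymph node table and once in the skin table. The libraries came from BALB/c wild-type mice (WT) and from Ifnk TG mice, which carry an Ifnk transgene under the keratin 14 promoter. That promoter is active in basal keratinocytes, and the transgene was made on C57Bl/6 and then backcrossed to BALB/c. Skin came from mice aged 12 months and comprised WT skin (n = 3), non-lesional TG skin (NL, n = 2) and lesional TG skin (L, n = 4). Inguinal skin-draining lymph nodes came from WT and TG mice left untreated (NoTx) or given UVB (UVTx, 250 mJ/cm2 on 3 days a week for 2 weeks, followed by 2 weeks of observation), with 3 libraries in each of the 4 groups. The nodes were pressed through a strainer before lysis, and neither the sex of the mice nor which NL and L samples shared an animal is given in the labels. The labels also give no age for the mice of the node libraries and no body site for the skin samples. Whether the NoTx and UVTx mice were of the same age is therefore not known, and an age difference could not be told apart from UVB.

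B cells recognise antigen through a membrane immunoglobulin that cannot signal alone. Cd79a and Cd79b encode the heterodimer that carries its signal into the cell, and Blk, a Src family kinase, and Bank1, an adaptor, act close to the receptor. Ms4a1 encodes CD20, a membrane protein of mature B cells. Cr2 encodes CD21, the complement receptor of the coreceptor complex that lowers the threshold for activation, while Cd22 encodes a sialic acid-binding lectin that dampens the signal. Fcer2a encodes CD23, the low-affinity IgE receptor, and Pax5 is the transcription factor that commits cells to the B lineage. Cr2 and Fcer2a are also expressed by follicular dendritic cells, the stromal cells of the follicle, and Blk by some T cells that carry the gamma delta receptor.

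In the GRCm38 annotation (GENCODE M21) the 9 genes are protein coding and lie on 8 chromosomes. Cd79a is on chromosome 7 (24897381 to 24902197, plus strand), and the others are on the minus strand. These are Cd22 on chromosome 7 (30865402 to 30880342), Cd79b on chromosome 11 (106311341 to 106314762), Ms4a1 on chromosome 19 (11249675 to 11266241), Blk on chromosome 14 (63372836 to 63417037), Bank1 on chromosome 3 (136053363 to 136326066), Cr2 on chromosome 1 (195136811 to 195176716), Fcer2a on chromosome 8 (3681737 to 3694175) and Pax5 on chromosome 4 (44524757 to 44710487). Ms4a1, Pax5, Cd22 and Bank1 each overlap an antisense transcript, and whether the counting used strand is not given in the sources used here, so reads of these transcripts may be included.

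The RefSeq promoter table (GRCm38.p6, 250 bases before to 50 after each start) held windows for 6 of the 9 genes. Ms4a1, Cd79b and Blk had none. The windows of Cd79a, the most abundant gene of the set in nodes, and of Cr2 and Cd22, on which the UVB and skin results turn, are shown 5′ to 3′ on the coding strand. They lie at chr7:24897247-24897546 (plus strand), chr1:195176670-195176969 (minus strand) and chr7:30878979-30879278 (minus strand). The Cd22 window lies wholly inside the gene as annotated (30865402 to 30880342), so its start site is not the annotated 5′ end. Capitals mark matches to any of 5 motifs searched on both strands, which were the octamer ATGCAAAT, the EBF1 core CCCNNGGG, the E-box CAGCTG, the PU.1 motif AGGAAGT and the core of the interferon-stimulated response element.
Cd79a: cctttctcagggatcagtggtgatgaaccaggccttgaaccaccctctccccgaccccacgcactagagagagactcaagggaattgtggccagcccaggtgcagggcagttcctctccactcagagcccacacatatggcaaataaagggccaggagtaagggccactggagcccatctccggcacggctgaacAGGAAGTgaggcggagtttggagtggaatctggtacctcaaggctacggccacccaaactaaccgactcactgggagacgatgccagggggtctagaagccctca
Cr2: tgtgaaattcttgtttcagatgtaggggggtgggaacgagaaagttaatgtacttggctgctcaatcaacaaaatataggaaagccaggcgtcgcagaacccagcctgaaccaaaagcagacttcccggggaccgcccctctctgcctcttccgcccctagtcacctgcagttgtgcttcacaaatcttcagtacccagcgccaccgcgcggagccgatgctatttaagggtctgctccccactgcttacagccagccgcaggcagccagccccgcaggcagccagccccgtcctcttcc
Cd22: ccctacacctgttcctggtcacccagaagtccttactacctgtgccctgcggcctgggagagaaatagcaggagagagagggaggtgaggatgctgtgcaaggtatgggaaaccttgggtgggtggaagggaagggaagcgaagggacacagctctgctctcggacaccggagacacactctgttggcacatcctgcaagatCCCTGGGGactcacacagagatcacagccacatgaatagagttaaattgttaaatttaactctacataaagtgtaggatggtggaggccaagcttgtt
The Cd79a window held 1 PU.1 match starting 55 bases before the start site, and the Cd22 window held 1 EBF1 core starting 48 bases before it. No letters of the 5 motifs were found in the Cr2 window. Among the other members, Bank1 held 1 EBF1 core and 1 of 3 Fcer2a windows held an E-box, while the Pax5 window held none. Of all 32851 windows of this length, 13.7% held the EBF1 core, 16.3% the E-box, 9.35% the PU.1 motif, 3.44% the interferon core and 1.74% the octamer.

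Total expected counts were 27599809 to 36428435 in the 12 node libraries and 40499078 to 56511276 in the 9 skin libraries, so that 3 counts, the limit that a count of 0 allows, were at most 1.09e-05% of a library. Ifnk, the gene of the transgene, was at 0 counts in all 3 WT skin libraries and at 14, 11, 5 and 8 counts in L replicates 4 to 7. It was at 6 and 0 counts in NL replicates 2 and 3, so NL replicate 3 did not show it, and it was at 0 in all 12 node libraries. Levels are given as CPM, counts divided by the TMM-scaled library size and brought to a common total, and levels of different genes are compared as CPM per kilobase of exon. Differences are log2 fold changes from 1 edgeR quasi-likelihood fit per tissue, each with its standard error (SE) and a Benjamini-Hochberg adjusted p over all genes tested in that tissue; a gene is said to rise or fall only where this was under 0.05. In these bulk libraries fewer B cells and less RNA per B cell cannot be told apart.

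In lymph nodes the set was expressed at high levels in every group. Ordered by CPM per kilobase over the 12 libraries, the receptor subunits came first, with Cd79a at 294 ± 60.7 and Cd79b at 226 ± 47 (SD, n = 12). Fcer2a followed at 96.9 ± 20.2, then Ms4a1 at 69.2 ± 11.7 and Cd22 at 69.1 ± 13.7, Cr2 at 41.6 ± 7.88, Pax5 at 38.5 ± 5.28, Bank1 at 29.2 ± 3.93 and Blk at 28.6 ± 4.7. Ms4a1 and Cd22, Cr2 and Pax5, and Bank1 and Blk were neighbours whose means differed by less than their SD. The means of the other neighbours differed by more than the SD of the lower gene, although their ranges overlapped, as for Cd79b at 132 to 302 and Fcer2a at 60.2 to 135 CPM per kilobase. All 9 ranked between the 94.3 and 99.5 percentile of the 27949 genes with counts in nodes. As markers of T cells, the other main lymphocyte of the node, 18 T cell genes together reached 5600 to 6920 CPM in these libraries.

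Over the 12 node libraries all 36 pairs of the 9 genes had a positive correlation of log2 CPM, with libraries that share group structure and composition, with a median Pearson r of 0.76. The highest was 0.98 for Bank1 with Cd79b and the lowest was 0.3 for Cr2 with Fcer2a. Without TG NoTx replicate 5, 26 of the 36 were positive over 11 libraries, with a median of 0.52 and a lowest value of -0.46 for Cr2 with Fcer2a. TG NoTx replicate 5 was the lowest library for each of the 9 genes and lay 0.665 log2 units below the 12-library mean of the set. In the same library genes of many other cells lay above their means, by 1.84 log2 units for erythroid, 1.52 for neutrophil, 1.22 for node stroma, 1.17 for follicular dendritic cell, 1.15 for fat cell, 0.917 for keratinocyte and 0.554 for macrophage genes. Several of these were not particular to it. The 3 TG NoTx libraries spanned 1.52 to 1.84 for erythroid, 0.892 to 1.52 for neutrophil and 0.407 to 1.17 for follicular dendritic cell genes. The highest WT NoTx values were 1.79 for erythroid and 2.44 for fat cell genes. The 18 T cell genes were 0.0275 above theirs, and mitochondrial transcripts took 10.1% of counts, the highest share among nodes. WT UVTx replicate 8 was the next lowest, at 0.173 below the mean of the set.

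**Figure D1:**
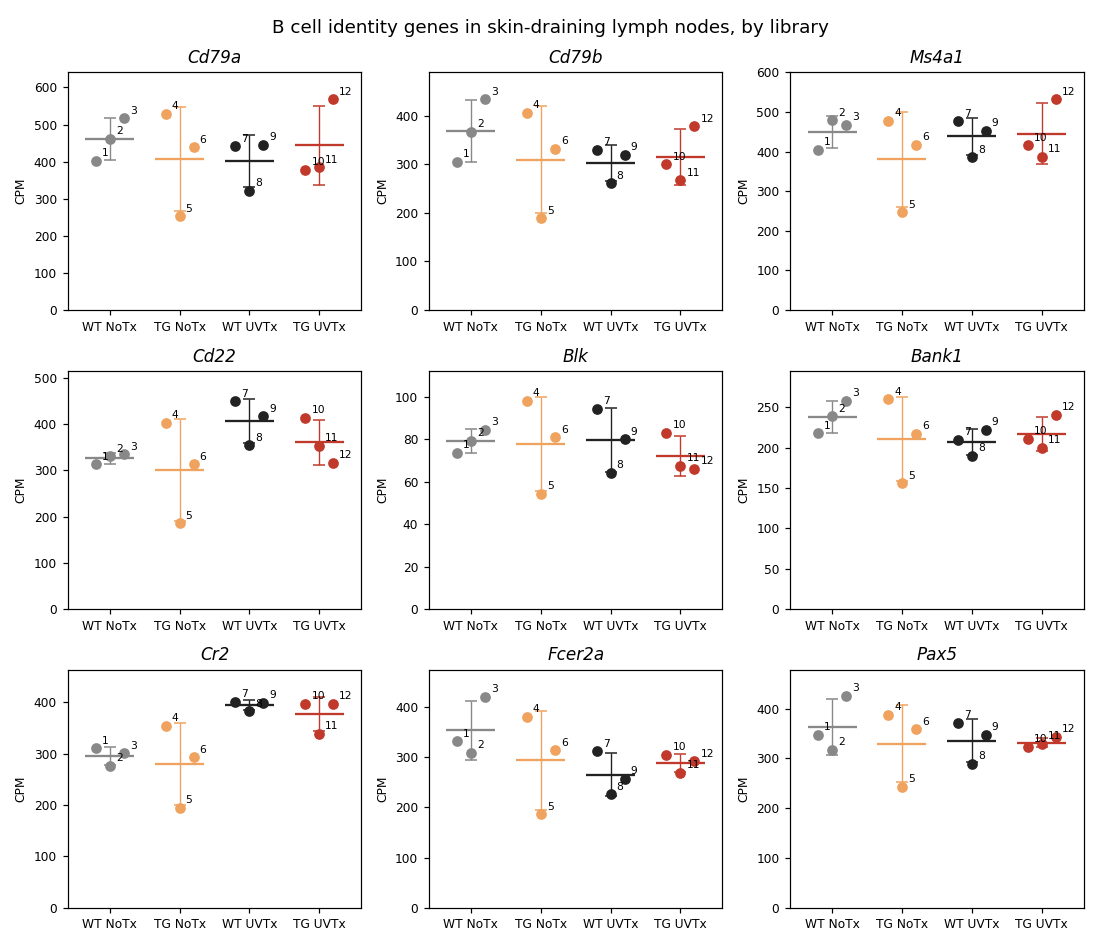
CPM of the 9 B cell identity genes (y axes, each starting at 0) in the 12 lymph node libraries, grouped on the x axis by genotype and treatment. Points are libraries numbered by replicate, horizontal lines are means and bars are 1 SD (n = 3). TG NoTx replicate 5 lies lowest in every panel, and in the Cr2 panel the 3 WT UVTx libraries (383 to 401 CPM) lie above the 3 WT NoTx libraries (277 to 311 CPM).

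The effect of UVB on the set was tested in WT nodes, in TG nodes and over both genotypes. Cr2 was the only member of the 9 to pass the test, and only over both genotypes, where it was 1.34-fold higher after UVB. In that comparison 1393 of 16173 genes tested, 8.61%, were called, against 1 of 9 members.

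Cr2 stood at 311, 277 and 301 CPM in WT NoTx nodes and at 401, 383 and 399 CPM in WT UVTx nodes. In TG nodes it stood at 354, 195 and 293 CPM without treatment and at 397, 339 and 397 CPM after UVB. The WT groups did not overlap, as was so for 37.1% of all genes tested, while in TG nodes the lowest UVTx library lay below the highest NoTx library. Group means were 296 ± 17.2 and 394 ± 10.1 CPM in WT nodes and 281 ± 80.1 and 378 ± 33 CPM in TG nodes (SD, n = 3 each). Over both genotypes the log2 fold change of Cr2 was 0.42 (SE 0.113, adjusted p = 0.0398). Within WT nodes it was 0.41 (SE 0.16, adjusted p = 0.131) and within TG nodes 0.43 (SE 0.16, adjusted p = 0.444), and neither alone passed the test. The difference between these 2 responses, tested as an interaction, was 0.02 (SE 0.226, adjusted p = 0.994). The call over both genotypes was lost without any 1 of TG NoTx replicate 6, TG UVTx replicate 10, WT NoTx replicates 1, 2 and 3 or WT UVTx replicates 7, 8 and 9 (log2 fold change 0.39 to 0.43, adjusted p = 0.0663 to 0.0936). Without TG NoTx replicate 5, the library lowest for the set, Cr2 was called with a log2 fold change of 0.30 (adjusted p = 0.0472), and without both that library and WT UVTx replicate 8 it was not (0.31, adjusted p = 0.1).

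Cr2 also moved against the other members within libraries. When its log2 CPM was taken relative to the mean of the other 8 genes in the same library and centred, the 6 NoTx libraries ranged from -0.401 to -0.0759 and the 6 UVTx libraries from 0.128 to 0.431. The treatments did not overlap, and TG NoTx replicate 5 lay among the other untreated libraries. Fcer2a, the other member shared with follicular dendritic cells, ranged from 0.0105 to 0.329 without UVB and from -0.306 to 0.0131 after it on the same scale. The treatments overlapped with all libraries and did not overlap without TG NoTx replicate 5. Because each gene is set against the other 8, a rise of Cr2 lowers the values of the others by construction. A fall of another member likewise raises the value of Cr2. The opposite direction of Fcer2a is therefore in part given by the scale. Cd22 ranged from -0.277 to -0.0302 and from -0.265 to 0.265, with 1 treated library, TG UVTx replicate 12, among the untreated ones. These relative levels are a description and were not tested. They come from the same libraries as the UVB call of Cr2 and are not separate evidence for it. The share of other genes that would part the treatments on such a scale was not computed.

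**Figure D2:**
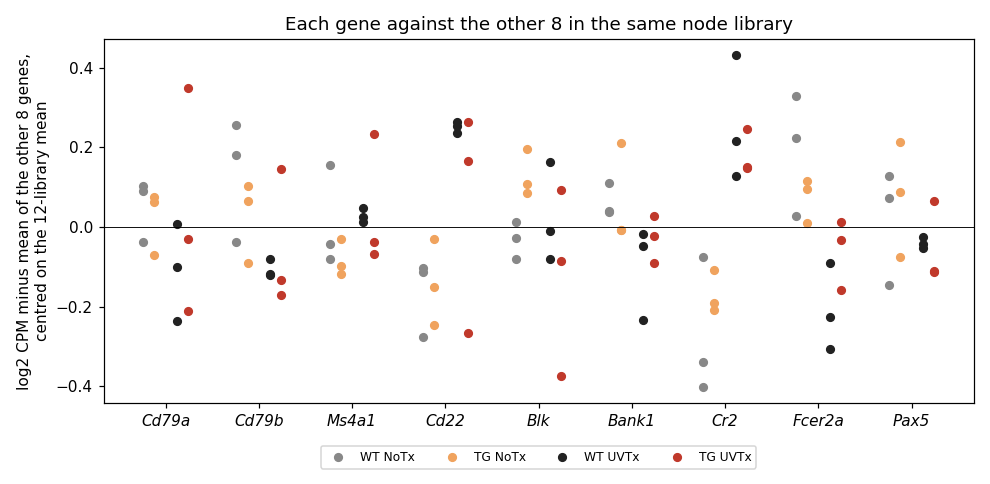
Log2 CPM of each gene minus the mean of the other 8 in the same node library, centred on the mean of the 12 libraries (y axis), for the 9 genes (x axis). Points are libraries coloured by group (n = 3 each); for Cr2 the 6 UVTx points (0.128 to 0.431) lie above the 6 NoTx points (-0.401 to -0.0759).

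Cd22, the inhibitory lectin, had the second largest positive value of the set. It was at 313, 330 and 335 CPM in WT NoTx nodes and at 449, 354 and 417 CPM in WT UVTx nodes. These groups did not overlap, as was so for 2 of 9 members and for 37.1% of all genes tested. In TG nodes Cd22 was at 403, 185 and 313 CPM without UVB and at 413, 353 and 316 CPM after it, and the groups overlapped. Its log2 fold change was 0.32 in WT nodes (SE 0.218, adjusted p = 0.376), 0.26 in TG nodes (SE 0.218, adjusted p = 0.752) and 0.29 over both (SE 0.154, adjusted p = 0.238). Without TG NoTx replicate 5 the TG value was 0.0031 (adjusted p = 0.999).

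The receptor subunits, CD20, the kinase, the adaptor and the lineage factor did not pass the test for UVB. Over both genotypes the log2 fold change was -0.03 for Cd79a (SE 0.178, adjusted p = 0.924), -0.13 for Cd79b (SE 0.172, adjusted p = 0.679) and 0.09 for Ms4a1 (SE 0.144, adjusted p = 0.722). It was -0.05 for Blk (SE 0.137, adjusted p = 0.848), -0.08 for Bank1 (SE 0.106, adjusted p = 0.666) and -0.05 for Pax5 (SE 0.113, adjusted p = 0.805). Fcer2a was at 331, 308 and 419 CPM in WT NoTx nodes and at 311, 226 and 257 CPM in WT UVTx nodes, and at 380, 186 and 313 against 304, 269 and 291 CPM in TG nodes. The groups of each genotype overlapped, and the log2 fold change of Fcer2a over both genotypes was -0.22 (SE 0.154, adjusted p = 0.379). Pax5 was the steadiest gene after UVB in TG nodes, at 324, 329 and 343 CPM. The median log2 fold change of the 9 genes was -0.05, beside 0.01 for all genes tested.

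In WT nodes alone, 4.98% of genes tested were called for UVB and 0 of 9 members were by edgeR or DESeq2, although edgeR fitted to the WT libraries alone called Cr2 (adjusted p = 0.0114). In TG nodes 0% were called by edgeR, with 1507 genes (9.32%) at an unadjusted p under 0.05, Cr2 among them, and 137 genes called by DESeq2, none of them a member.

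**Figure D3:**
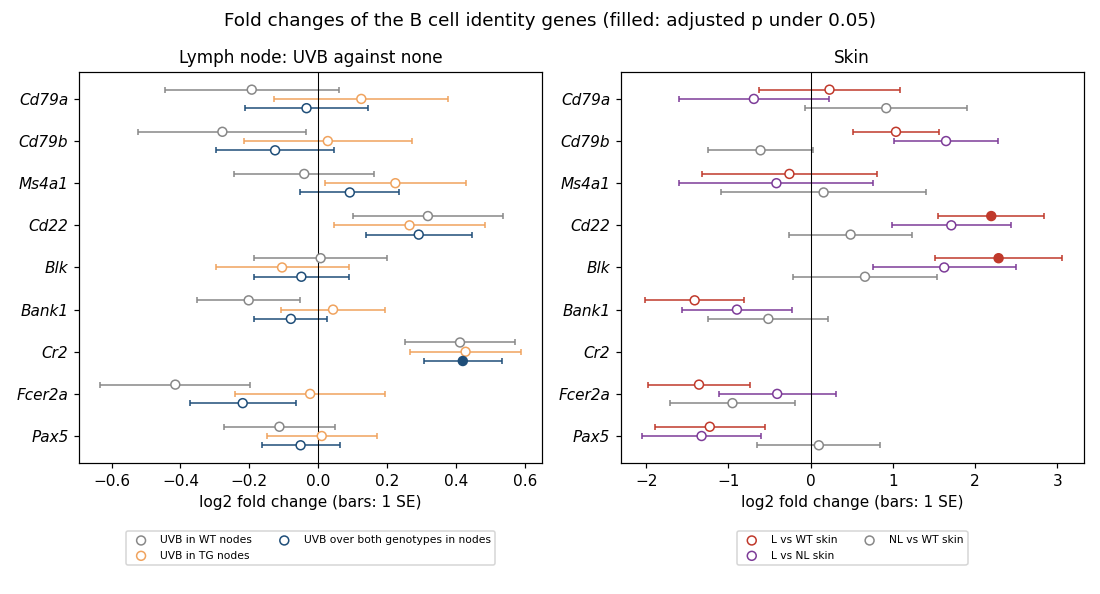
Log2 fold changes (x axes) of the 9 genes (y axes) for UVB in lymph nodes (left) and between skin groups (right), with bars of 1 SE; filled points have an adjusted p under 0.05 and Cr2 was not tested in skin. In nodes only Cr2 over both genotypes is filled (0.42), and in skin Cd22 (2.20) and Blk (2.29) in L against WT.

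Other genes of the B cell receptor pathway were counted for UVB over both genotypes, where 8.61% of all genes tested were called. Of 14 kinases, adaptors and coreceptor parts, 0 were called for UVB over both genotypes by edgeR. The most abundant were Pik3cd, a catalytic subunit of the kinase PI3K (log2 fold change 0.04, SE 0.0606, adjusted p = 0.73), and Syk, the kinase that binds phosphorylated Cd79a and Cd79b (0.14, SE 0.122, adjusted p = 0.473). Of 8 inhibitors of the pathway, 1 rose, Fcgr2b, the inhibitory Fc receptor (0.52, SE 0.124, adjusted p = 0.027), and 7 of 8 were positive. The median of the inhibitors was 0.26, beside 0.05 for the 14 signalling genes and 0.01 for all genes.

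The counts of the next lists also stand beside the 8.61% of all genes called for UVB over both genotypes. Among 11 other transcription factors of the lineage, 1 was called, Foxo1, which fell by 0.27 on the log2 scale (SE 0.0777, adjusted p = 0.047). Of 17 other B cell surface genes 0 were called by edgeR, with Cd37 at 0.19 (SE 0.097, adjusted p = 0.208) and Fcmr at -0.16 (SE 0.197, adjusted p = 0.649). Of 12 immunoglobulin constant genes 2 rose, Ighg1 (2.55, SE 0.589, adjusted p = 0.036) and Igha (1.51, SE 0.428, adjusted p = 0.0483). Ighg1 averaged 6.59 ± 4.71 and 45.5 ± 35 CPM in WT NoTx and WT UVTx nodes and 7.95 ± 4.93 and 39.4 ± 28.3 CPM in TG NoTx and TG UVTx nodes. Of 13 germinal centre and plasma cell genes tested 0 were called and 11 were positive, with a median of 0.39. The most abundant were Irf4 (0.39, SE 0.134, adjusted p = 0.0867) and Bcl6, the factor of germinal centre B cells (0.39, SE 0.13, adjusted p = 0.0804). Of 4 tested genes for B cell survival signals 0 were called, with Tnfrsf13b at -0.19 (SE 0.119, adjusted p = 0.308) and Tnfrsf13c, the BAFF receptor, at 0.26 (SE 0.156, adjusted p = 0.307).

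Genes of other node cells also moved with UVB over both genotypes, where 8.61% of all genes tested were called. All 8 node stroma genes were negative, with a median of -0.84, and 1 fell, Glycam1 (-1.34, SE 0.185, adjusted p = 0.00535). Their summed level was 78.3 to 106 CPM in WT NoTx, 93.1 to 195 in TG NoTx, 24.8 to 62.5 in WT UVTx and 33.8 to 97.7 CPM in TG UVTx nodes. All 8 follicular dendritic cell genes on the list, which leaves out Cr2 and Fcer2a, were also negative, with a median of -1.01, and 4 fell. Those were Cxcl13, the chemokine that draws B cells into follicles, at -1.75 (SE 0.314, adjusted p = 0.0146), Enpp2 at -1.28 (SE 0.244, adjusted p = 0.0164), Bst1 at -1.02 (SE 0.227, adjusted p = 0.0204) and Mfge8 at -1.01 (SE 0.248, adjusted p = 0.0384). The summed level of the list was 172 to 200 CPM in WT NoTx, 191 to 348 in TG NoTx, 66.2 to 138 in WT UVTx and 89.1 to 179 CPM in TG UVTx nodes. Erythroid genes fell in 6 of 6 tested, Alas2 by 2.25 on the log2 scale (SE 0.41, adjusted p = 0.0144), and their summed level went from 121 to 304 CPM without UVB to 10.8 to 160 CPM after it. Of 18 T cell genes 3 fell, among them Trbc1 (-0.27, SE 0.0667, adjusted p = 0.0294). Of 10 homing genes 3 fell, Ccr7 (-0.31, SE 0.0613, adjusted p = 0.0144), Cxcl12 (-1.66, SE 0.436, adjusted p = 0.0471) and the shared Cxcl13. Without TG NoTx replicate 5, an alternative added after seeing the data, 367 genes rose and 337 fell in all. The calls were then 3 of 8 for follicular dendritic cell, 2 of 6 for erythroid, 2 of 10 for homing, 1 of 8 for node stroma and 1 of 8 for inhibitor genes, and 0 for T cell, immunoglobulin and transcription factor genes. The part of these other cells in the value of Cr2 was not tested.

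The genotype had no called effect on the set in nodes. Without UVB 0% of genes were called, with 549 genes at an unadjusted p under 0.05 and 2 called by DESeq2. All 9 members were lower in TG than in WT nodes in that comparison, from -0.27 for Fcer2a to -0.03 for Blk, with SE of 0.15 to 0.252. Without TG NoTx replicate 5, 6 of the 9 were positive and 3 negative, with a median of 0.03. Cd79a stood at 529, 253 and 439 CPM in TG NoTx against 403, 461 and 517 CPM in WT NoTx nodes, and Bank1 at 260, 156 and 217 against 218, 239 and 258 CPM. The groups overlapped for each member with all libraries. After UVB 0% of genes were called (1131 at an unadjusted p under 0.05, 19 by DESeq2), and members ranged from -0.17 for Cd22 to 0.14 for Cd79a. For the interaction of UVB and genotype 0% were called (881 and 8 genes by the same counts), and members ranged from -0.11 for Blk to 0.39 for Fcer2a, with SE of 0.212 to 0.356. Over both treatments 0.00618% of genes, 1 gene, was called for genotype. No member was called in these comparisons by edgeR or DESeq2, and none had an unadjusted p under 0.05 by edgeR.

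In skin the same genes were at low levels, from 0 to 9 counts in a library for Cr2 to 12 to 189 counts for Bank1. Mean levels over the 9 libraries were 0.0879 CPM for Cr2, 0.144 for Pax5, 0.289 for Cd79a, 0.378 for Ms4a1, 0.594 for Cd79b, 0.711 for Cd22, 0.786 for Fcer2a, 1.38 for Blk and 2.02 CPM for Bank1. The mean in nodes was 56.1 times the skin mean for Blk, 108 times for Bank1 and 3830 times for Cr2, with the remaining genes from 381 to 2360 times. The tissues were sequenced and normalised separately, so these ratios are approximate. The order of the genes also differed. By CPM per kilobase Blk came first in skin (0.511 ± 0.41, SD, n = 9) and was last in nodes, followed by Cd79b (0.415 ± 0.249), Bank1 (0.27 ± 0.167), Fcer2a (0.254 ± 0.167), Cd79a (0.199 ± 0.129), Cd22 (0.141 ± 0.121), Ms4a1 (0.0611 ± 0.0513), Pax5 (0.0163 ± 0.011) and Cr2 (0.0108 ± 0.01). Neighbours down to Cd22 differed by less than the SD of the lower gene, as did Pax5 and Cr2, while the steps from Cd22 to Ms4a1 and from Ms4a1 to Pax5 were larger than that SD, with ranges that overlapped. All 9 ranked between the 15.3 and 49.5 percentile of 29196 genes with counts. A filter on low counts kept 8 members for testing and left out Cr2, which had 0, 2 and 9 counts in WT, 3 and 4 in NL and 2, 8, 6 and 0 counts in L skin.

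The members did not move together in skin. Over 28 pairs of the 8 tested genes and 9 libraries the median Pearson r was 0.11, from -0.79 for Cd22 with Fcer2a to 0.87 for Cd79a with Ms4a1, and 17 pairs were positive. Ms4a1 and Cd79a, the pair most alike, were high in WT replicate 10 and NL replicate 2 rather than in a group. Ms4a1 was at 8, 3 and 38 counts in WT replicates 8 to 10, at 38 and 6 in NL replicates 2 and 3 and at 23, 24, 14 and 1 counts in L replicates 4 to 7. Cd79a was at 5, 2 and 21, at 28 and 13, and at 14, 13, 20 and 3 counts in the same libraries.

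**Figure D4:**
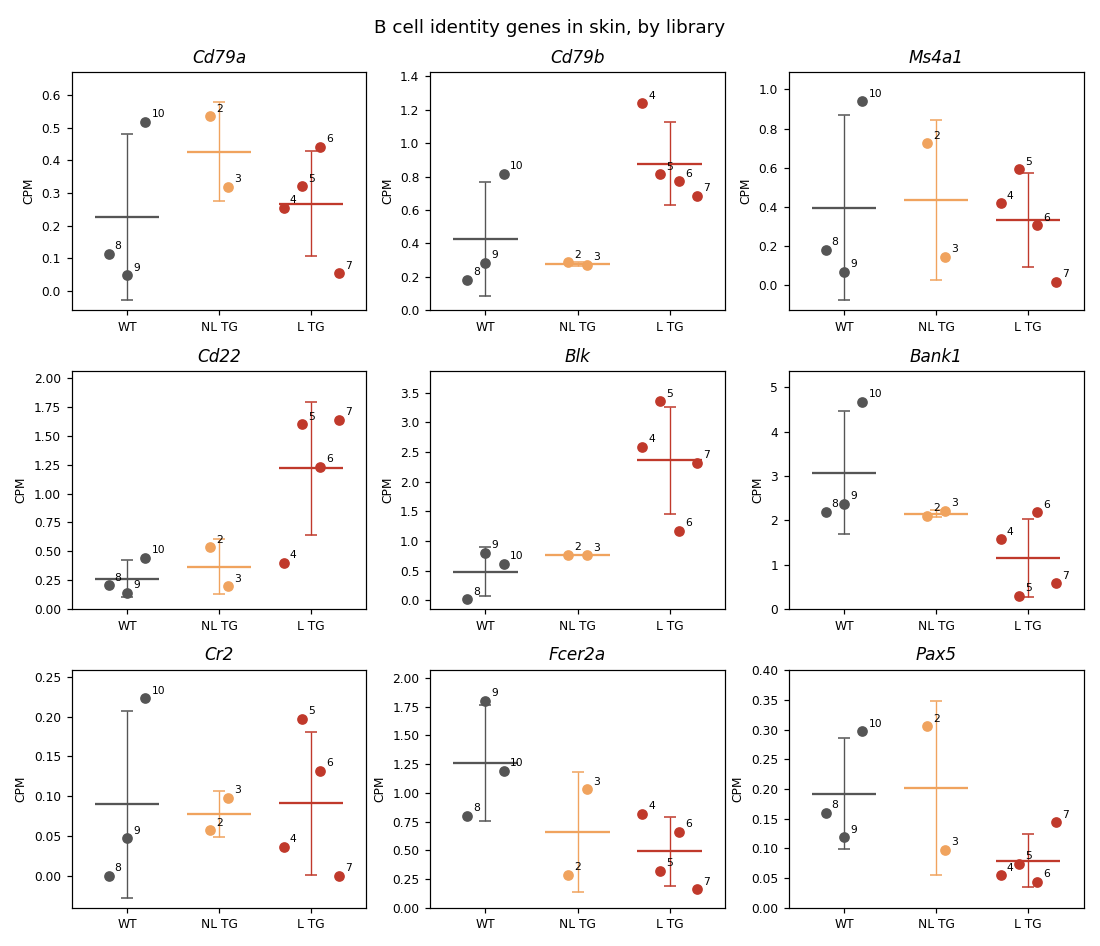
CPM of the 9 genes (y axes, each with its own scale) in the 9 skin libraries, grouped on the x axis as WT, NL TG and L TG. Points are libraries numbered by replicate, lines are means and bars are 1 SD (n = 3, 2 and 4), which can reach below 0; Blk is higher in all 4 L libraries (1.17 to 3.35 CPM) than in the other 5, while Ms4a1 and Cd79a are highest in WT replicate 10 or NL replicate 2.

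Lesional skin was compared with WT skin to ask which of these genes differ in lesions. Of the 8 tested members 2 rose, Blk and Cd22, where 43.1% of all 19101 genes tested were called, so the share of members called was below that of all genes. The remaining 6 did not pass the test.

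Blk was at 0.0228, 0.807 and 0.618 CPM in WT replicates 8 to 10 (1, 34 and 25 counts), at 0.765 and 0.76 CPM in NL and at 2.59, 3.35, 1.17 and 2.32 CPM in L replicates 4 to 7. The L libraries lay above all others; L and WT libraries did not overlap for 49.4% of all genes tested. Its means were 2.36 ± 0.906 in L (n = 4) and 0.483 ± 0.409 CPM in WT skin (n = 3), with a log2 fold change of 2.29 (SE 0.777, adjusted p = 0.0416). The call was lost without any of L replicates 4, 5 and 7, NL replicates 2 and 3 or WT replicates 9 and 10 (log2 fold change 2.07 to 2.87, adjusted p = 0.0527 to 0.0873), and it held without L replicate 6 or WT replicate 8 (adjusted p = 0.0391 and 0.0241). It was also lost with no filter, with the Xist level as a covariate and with L and WT fitted alone (adjusted p = 0.0553, 0.0521 and 0.0685). Cd22 was at 0.205, 0.142 and 0.445 CPM in WT, at 0.535 and 0.196 CPM in NL and at 0.401, 1.6, 1.23 and 1.64 CPM in L skin. L replicate 4 lay within the WT range and the other 3 above it. Its means were 1.22 ± 0.576 in L and 0.264 ± 0.16 CPM in WT skin, with a log2 fold change of 2.20 (SE 0.646, adjusted p = 0.0236). That call was lost without WT replicate 8 (2.04, adjusted p = 0.0786) or WT replicate 9 (1.88, adjusted p = 0.0833) and held without each of the other 7 libraries.

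Cd79b was at 0.182, 0.285 and 0.816 CPM in WT, at 0.287 and 0.27 CPM in NL and at 1.24, 0.814, 0.771 and 0.685 CPM in L skin. Its log2 fold change in L against WT was 1.04 (SE 0.52, adjusted p = 0.138), and it was called without WT replicate 10, the highest WT library (1.90, adjusted p = 0.0172). Its partner Cd79a had a log2 fold change of 0.23 (SE 0.859, adjusted p = 0.849), and Ms4a1 had -0.26 (SE 1.06, adjusted p = 0.864). Pax5, at 7, 5 and 12 counts in WT and 3, 3, 2 and 8 in L skin, had -1.23 (SE 0.666, adjusted p = 0.168). Counts of Ms4a1 and Cd79a were too low and too uneven within groups to detect a moderate difference at this depth.

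The log2 fold changes of 2 further members were negative. Bank1 was at 2.19, 2.37 and 4.67 CPM in WT, at 2.1 and 2.21 CPM in NL and at 1.57, 0.296, 2.18 and 0.577 CPM in L skin. The highest L library (2.18 CPM, 99 counts) and the lowest WT library (2.19 CPM, 96 counts) were nearly equal. L and WT libraries did not overlap for Bank1, as for 49.4% of all genes tested. Its log2 fold change was -1.41 (SE 0.605, adjusted p = 0.0901), and it was called by DESeq2 (-1.45, adjusted p = 0.0387) and by edgeR without L replicate 6 (-1.90, adjusted p = 0.0376). Fcer2a was at 0.798, 1.8 and 1.19 CPM in WT and at 0.819, 0.321, 0.661 and 0.162 CPM in L skin, with a log2 fold change of -1.36 (SE 0.621, adjusted p = 0.108). The median over the 8 members was -0.01, beside 0.06 for all genes tested, and 4 were positive.

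Against NL skin, 25% of genes were called in L skin and 0 of 8 members by edgeR. The largest values were 1.71 for Cd22 (SE 0.725, adjusted p = 0.116), 1.65 for Cd79b (SE 0.627, adjusted p = 0.0858) and 1.63 for Blk (SE 0.869, adjusted p = 0.2). The Cd79b and Blk libraries of L and NL skin did not overlap, which held for 2 of 8 members and for 49.4% of all genes tested. An unadjusted p under 0.05 was reached by 2 of 8 members, Cd79b and Cd22, and by 39% of all genes. Neither share of members was above that of all genes. DESeq2 called Cd79b (adjusted p = 0.0397). Leaving out single libraries gave calls of Cd22 without L replicate 4 (adjusted p = 0.0415), of Blk without WT replicate 8 (adjusted p = 0.0394) and of Cd79b without WT replicate 10 (adjusted p = 0.0362). Between NL and WT skin 0% of genes were called by edgeR, with 1465 at an unadjusted p under 0.05 and 80 called by DESeq2, no member among either. Members ranged from -0.95 for Fcer2a to 0.92 for Cd79a, with SE of 0.643 to 1.25 and 2 NL libraries.

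Other genes of the receptor pathway and lineage were counted in L against WT skin, where the counts stand beside the 43.1% of all genes called. Of 14 signalling genes 3 rose and 4 fell, with a median of -0.20. Those with the smallest adjusted p were Rasgrp3 (-2.29, SE 0.281, adjusted p = 0.00047), Cd81 (-0.80, SE 0.15, adjusted p = 0.00326), Plcg2 (0.95, SE 0.184, adjusted p = 0.00382) and Prkcb (-0.99, SE 0.255, adjusted p = 0.0135), all of which are also used by other cells. Of 8 inhibitors 1 rose, Fcrl5, an Fc receptor-like protein of B cells, which averaged 0.365 ± 0.0532 CPM in lesions against 0.0247 ± 0.0428 in WT (log2 fold change 3.79, SE 0.95, adjusted p = 0.0122). Of 14 tested surface genes 6 rose and 0 fell, a share close to that of all genes called, and those with the smallest adjusted p were Tnfrsf13c, the BAFF receptor (2.42, SE 0.398, adjusted p = 0.00173), Ralgps2 (0.73, SE 0.122, adjusted p = 0.0019), Btla (2.31, SE 0.476, adjusted p = 0.00505) and Ly6d (1.07, SE 0.288, adjusted p = 0.0164), the last of which keratinocytes also express. Tnfrsf13c was at 0.251 ± 0.101 CPM in WT, 0.777 ± 0.0452 in NL and 1.36 ± 0.411 CPM in L skin.

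Of 11 transcription factors 4 rose and 3 fell. Bcl11a (1.39, SE 0.182, adjusted p = 0.000606) and Tcf3 (0.64, SE 0.117, adjusted p = 0.00277) rose, while Ebf1 (-1.98, SE 0.335, adjusted p = 0.0023) and Mef2c (-3.03, SE 0.628, adjusted p = 0.00622), which fat and muscle cells respectively also express, fell. Among 10 tested immunoglobulin constant genes Igha rose (4.66, SE 1.36, adjusted p = 0.0258), and Ighm (-1.27, SE 0.35, adjusted p = 0.0197) and Ighd (-1.51, SE 0.532, adjusted p = 0.0467) fell. Ighm was at 91.8 ± 22.3 CPM in WT, 166 ± 60.1 in NL and 38.2 ± 15.4 CPM in L skin, and Igha at 1.18 ± 0.838, 1.13 ± 0.349 and 29.8 ± 44.7 CPM, with 168 to 4379 counts among the L libraries. Ighm was out of proportion to the light chain gene Igkc, which was at 2.56 ± 4.17 CPM in WT skin. In WT NoTx nodes Ighm was at 1080 ± 123 and Igkc at 373 ± 52 CPM. The source of the Ighm reads in skin was not tested, so whether their fall reflects B cells or other cells cannot be told. Of 13 tested germinal centre and plasma cell genes 3 rose and 2 fell, among them Prdm1 (1.59, SE 0.184, adjusted p = 0.000381), Bcl6 (-1.17, SE 0.166, adjusted p = 0.000896), Sdc1 (1.38, SE 0.201, adjusted p = 0.000984) and Mzb1 (3.84, SE 0.978, adjusted p = 0.0131). Prdm1 and Sdc1 are also epidermal genes.

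Of 10 homing genes 5 rose and 0 fell in L against WT skin, beside 43.1% of all genes called, with a median of 1.12. Ltb, a lymphotoxin subunit (2.20, SE 0.37, adjusted p = 0.00194), Ccr7, the receptor that guides lymphocytes to nodes (2.61, SE 0.47, adjusted p = 0.00266), its ligand Ccl19 (2.29, SE 0.528, adjusted p = 0.00839) and Cxcr4 (0.99, SE 0.299, adjusted p = 0.0262) were among them. Of 12 interferon-stimulated genes 3 rose and 0 fell, a smaller share than that of all genes, among them Isg15 (2.51, SE 0.572, adjusted p = 0.00936) and Oas1a (1.71, SE 0.431, adjusted p = 0.0137). Against NL skin the 14 surface genes were all positive with 1 called, Btla (2.38, SE 0.562, adjusted p = 0.0166), and their median was 0.81, beside -0.41 for the members and 0.03 for all genes tested.

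Markers of other cells differed between the same skin groups. Of 18 T cell genes 13 rose in L against WT skin and 0 fell, beside 43.1% of all genes called. Their median log2 fold change was 1.51. The smallest adjusted p values were those of Tcf7 (1.80, SE 0.244, adjusted p = 0.000736), Cd5 (3.61, SE 0.517, adjusted p = 0.000927), Lck (1.59, SE 0.268, adjusted p = 0.00196) and Trac (3.53, SE 0.713, adjusted p = 0.00455). Their summed level was 126 to 185 CPM in WT, 158 to 167 in NL and 191 to 274 CPM in L skin. Muscle genes summed to 21500 to 30900 CPM in WT, 22800 to 26100 in NL and 21.4 to 6210 CPM in L skin, and fat cell genes to 11800 to 18500, 9730 to 12700 and 812 to 6000 CPM. Of 7 tested neutrophil genes 4 rose, beside the same 43.1% of all genes. The neutrophil list summed to 10.6 to 20.6 CPM in WT, 12.6 to 13.4 in NL and 64.2 to 572 CPM in L skin. The part of T cells, neutrophils, muscle and fat in the values of Blk, Cd22 and the other members was not tested. Nor was that of body site, which the labels do not give.

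**Figure D5:**
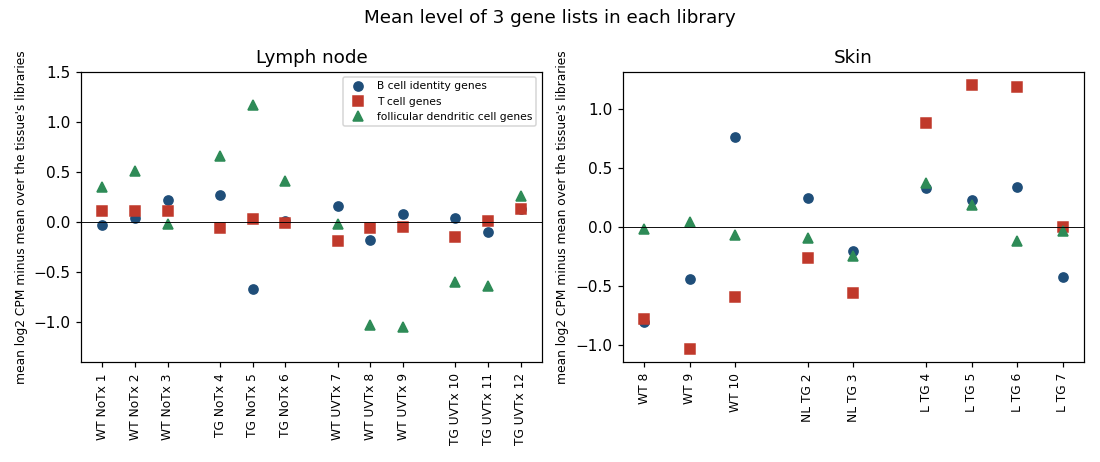
Mean log2 CPM of the B cell identity genes, 18 T cell genes and the follicular dendritic cell genes (y axes) in each node library (left) and skin library (right), minus the mean over the libraries of that tissue. Points are single libraries named by group and replicate; TG NoTx replicate 5 has the lowest B cell (-0.665) and highest follicular dendritic cell value (1.17) of the nodes, and in skin the T cell points of L libraries lie above those of WT and NL.

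The genes whose pattern over node libraries was most like the mean log2 CPM of the 9 members were Pxdc1 (Pearson r = 0.989), H2-DMb2 (0.976) and Plcg2 (0.976), followed by Igkv10-96 (0.963) and H2-DMa (0.958), over 12 libraries. Without TG NoTx replicate 5 the r of these 5 genes was 0.865 to 0.969. Plcg2 encodes the phospholipase of the receptor pathway, and H2-DMa and H2-DMb2 load peptides onto class II molecules. Over the 9 skin libraries and 8 tested members the most alike genes were Gm45140 (0.894), Xkr5 (0.893), Stat3 (0.873), Mex3b (0.856) and Xlr3a (0.833), none of them on the B cell lists. The points share library composition, and these values are descriptions.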

How the data were processed

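Poly-A RNA of 9 mouse skin and 12 inguinal lymph node samples was sequenced as paired ends. Per the labels and methods, the authors trimmed reads with cutadapt 4.8, aligned them with STAR 2.7.8a to GRCm38 and deposited expected counts from RSEM 1.3.3, which need not be whole; estimates of this kind share reads between overlapping transcripts. Values were rounded to whole counts. Of 55491 gene identifiers, 55141 matched GENCODE M21, which gave positions and exon lengths. Where a listed symbol occurred more than once, the row with most counts was used.

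Counts were fitted per tissue with edgeR 4.0.16 in R 4.3.3 (TMM, filterByExpr with a minimum of 10 counts, robust quasi-likelihood F-test, Benjamini-Hochberg over all tested genes, threshold 0.05), after the fit was tested on simulated counts. CPM used TMM-scaled library sizes, and log2 CPM a prior count of 2. Alternatives were DESeq2 1.42.0, 2 other scalings, other filters (none, or 10 counts in every library), no robust step, the Xist level as a covariate, the compared groups alone and leaving out each library; omitting 2 low node libraries together, and describing the node lists and correlations without TG NoTx replicate 5, were added after seeing the data. Precision is limited by counting error in skin, where members had 0 to 189 counts, and by the spread of 2 to 4 libraries elsewhere. The labels do not say whether libraries of a group came from separate animals, so p-values measure the spread between these libraries.

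The members and gene lists were chosen with earlier results of these data known. All 9 members are described; from each other list up to 4 genes with the smallest adjusted p among those called are named, or, with none called, up to 2 with the highest CPM; the 5 genes most like the members' mean are named per tissue. Results of some listed genes are not reported here.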

Additional observations from a re-analysis of the deposited data

How the results depend on the processing

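No paired analysis was possible because the labels do not identify the animals, and replicate numbers only count the libraries within a tissue. Whether any NL and L libraries share an animal is not known. The 3 calls (Cr2 over both genotypes in nodes, Blk and Cd22 in L against WT skin) kept their direction in every alternative in which the gene was tested. Blk and Cd22 were not tested in skin with 10 counts required in every library. In L against WT skin, 1 member was called with no filter, with the Xist covariate and with the compared groups alone, and 0 with 10 counts required in every library, where 1 member was tested; leaving out single libraries gave 0 (without WT replicate 9) to 3. In L against NL skin, DESeq2 and the compared groups alone each called 1, and leaving out single libraries gave 0 to 1. The compared groups alone called 1 for UVB in WT nodes. Over both genotypes no filter called 0, as did leaving out TG NoTx replicate 5 and WT UVTx replicate 8 together, and leaving out single libraries gave 0 to 1.

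Of 84 member values not past the threshold, 49 changed sign under at least 1 alternative. Among log2 fold changes printed above, leaving out single libraries gave -0.77 to 1.36 for Ms4a1 and -0.27 to 1.68 for Cd79a in L against WT skin. For UVB over both genotypes it gave -0.0396 to 0.18 for Ms4a1, -0.17 to 0.0704 for Cd79a, -0.16 to 0.00094 for Pax5 and -0.17 to 0.0371 for Blk. The interaction of Cr2 ranged from -0.17 to 0.24, and was -0.19 without both low libraries.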
